A study of Drosophila melanogaster with 15 samples.

Results

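Transcript levels in Drosophila melanogaster embryos at the start of gastrulation were compared with those in embryos in the slow phase of cellularisation. The comparison set the 3 arrays of stage T3 against the 3 of stage T1, from a time course of 15 arrays. All 13966 probe sets that are not platform controls were tested, and the spread was estimated from all 15 arrays. Both stages came from yellow white and Oregon R flies, named as the parents for T1 and as the embryos for T3, and the labels name no mutant or agent that separates them. Eggs were laid in short collections, aged at room temperature, stripped of the chorion with bleach and staged by eye and selected under oil, after which whole embryos were extracted in Trizol. T3 is the onset of germ band elongation in the sample labels and the onset of gastrulation in the series text, and no value used here separates these neighbouring stages. The labels do not state that arrays of a stage came from separate collections. The p-values therefore reflect only the spread among the arrays within the stages, and that spread may be technical.

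In the syncytial fly embryo, nuclei divide without cytokinesis on RNA and protein supplied by the mother. The zygotic genome then takes over while maternal transcripts are degraded, and membrane grows inward between the nuclei to form the first epithelium. Gastrulation follows, with invagination of the mesoderm and endoderm and with extension of the germ band, as broad positional patterns are refined into segmental stripes and tissue fates. Because whole embryos were used, fewer cells of a type and less RNA per cell cannot be told apart.

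Signals are array units scaled to a trimmed mean of 100 on every array, and the precision is limited by having 3 arrays a stage. Over all probe sets, Pearson r was 0.934 to 0.956 within a stage and 0.862 to 0.890 between T1 and T3. A level of 21.96, the 95th percentile of the negative-control probe sets, served as the background level and is called the control level here. Between 46.8% and 49.7% of the signals of a T1 array lay below it, and between 41% and 45.2% of those of a T3 array. Their median signals were 22.2 to 25.4 at T1 and 28.3 to 33.7 at T3, so that T3 arrays were brighter in the middle of the range at the same trimmed mean. Among 14 markers of the adult ovary, eggshell and yolk, limma called 0, and 0 had an unadjusted p under 0.05. Leaving out T3 replicate 2 gave 1 call. The summed signal of these markers was 315 to 367 at T1 and 374 to 538 at T3, and 8 of them exceeded the control level on at least 1 array. Their part in the results was not tested. Of 10 genes of differentiated muscle, neurons, glia and cuticle, only elav, a neuronal RNA-binding protein, was called, with 1.5, 13.8 and 23.8 at T1 and 46.4, 56.1 and 39.8 at T3. That call was lost without T1 replicate 1 (adjusted p = 0.073) and without T3 replicate 2 (adjusted p = 0.057).

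A probe set was called where its limma adjusted p was under 0.05 and its log2 fold change at least 1 in size, on the scale of log2(signal + 7.3). On this scale 1291 probe sets were higher at T3 (9.24% of those tested) and 893 were lower (6.39%), together 15.6%. Changes of at least 3 on the log2 scale were made by 49 probe sets that rose and 68 that fell. Of the probe sets that rose, 361 were at or below the control level on every T1 array, and 259 of these were above it on every T3 array. Of those that fell, 168 were at or below the control level on every T3 array. The 3 T1 arrays and the 3 T3 arrays did not overlap for 2901 probe sets higher at T3 (20.8%) and 1920 lower (13.7%). The balance of directions depended on the scaling. Risers made up 59.1% of the calls on the deposited scale and 40.8% after centring on each array's median, where 886 probe sets were higher and 1283 lower, and quantile normalization gave 1028 higher and 988 lower. The median log2 fold change over all probe sets was 0.12 on the deposited scale and -0.14 after median centring, and list medians below are to be read against it.

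**Figure D1:**
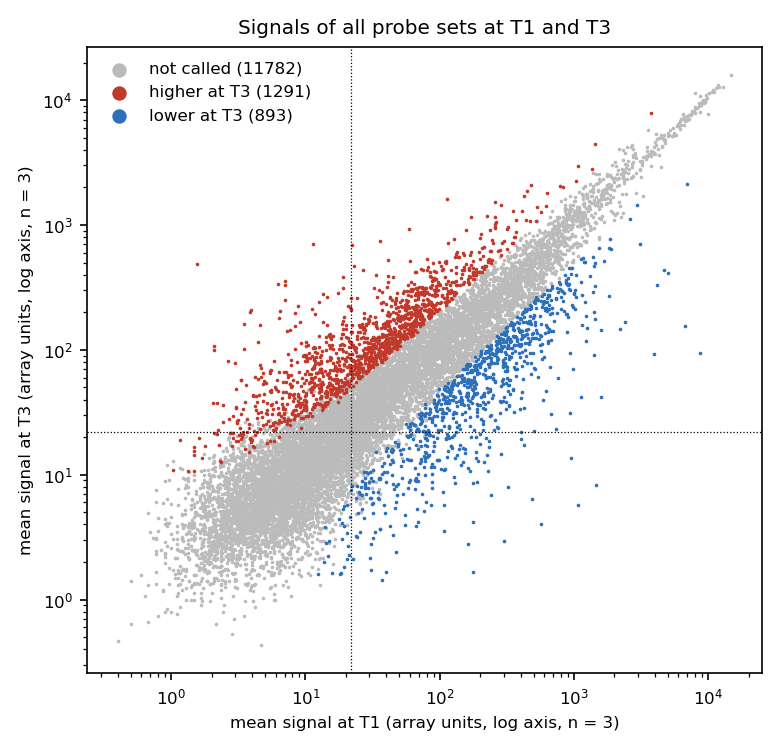
Mean signal of each probe set at T1 (horizontal) and T3 (vertical), in array units on log axes, with n = 3 arrays per stage. Points in red are the 1291 probe sets called higher at T3, points in blue the 893 called lower and grey points the rest. Dotted lines mark the control level of 21.96, and many of the red points lie left of the vertical line, where T1 signals were not above background.

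Taken per gene, with 1 probe set standing for each, 1080 of 10844 genes rose (9.96%) and 745 fell (6.87%). These shares include genes at background, which were seldom called, so they are a low mark for lists of expressed genes. Of the 5531 genes above the control level on all T0 arrays, 780 rose and 671 fell. Among the 10 named genes with the highest changes, the paired-box segmentation gene gsb gave 5.2, 8.6 and 4.9 at T1 and 335.3, 369.5 and 298.4 at T3, at least 15.2-fold higher (log2 fold change 4.66 ± 0.22 SE, adjusted p = 1.86e-08). The neural homeobox gene ind gave 8.7, 6.9 and 5.4 at T1 and 328.0, 403.9 and 326.9 at T3, at least 15.99-fold higher. All T3 values of both genes were far above all T1 values, which did not exceed background. CadN, the neuronal cadherin, rose from 3.87 ± 2.95 (SD, n = 3) to 202 ± 20.9, at least 9.15-fold. The PDZ-domain gene bbg rose from 3.93 ± 0.643 to 208 ± 27.1, at least 9.40-fold. The others were zfh1, edl, E(spl)malpha-BFM, Prim2, Orc2 and the mismatch repair gene Msh6. Msh6 went from 7.07 ± 0.306 to 250 ± 23.1, at least 11.4-fold. The highest rise of any probe set, from 1.4, 1.9 and 1.4 to 368.6, 438.5 and 644.4, was that of one with no annotated gene symbol.

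Among the 10 named genes with the lowest changes, the insulator protein gene Elba3 gave 1755.5, 1274.2 and 1350.2 at T1 and 20.3, 1.2 and 3.5 at T3, at least 65.8-fold lower (log2 fold change -6.74 ± 0.36 SE, adjusted p = 3.26e-08). The furrow gene slam gave 9538.1, 7819.0 and 8934.1 at T1 and 125.8, 60.7 and 99.2 at T3 (log2 fold change -6.47 ± 0.24 SE, adjusted p = 2.57e-09). Stages did not overlap for either gene, and all T3 values of Elba3 were at background. The dual oxidase maturation factor gene mol fell from 571 ± 29.6 to 4.07 ± 3.76, at least 26.0-fold. Z600, Elba2, the cathepsin gene CtsK1, ftz-f1, tor, Kcmf1 and the Golgi adaptor gene Gga made up the rest. CtsK1 was 2953 at T0 (mean of 3 arrays), 931 ± 55.0 at T1 and 31.0 ± 10.3 at T3. Kcmf1, which encodes a ubiquitin ligase of the KCMF family, fell from 422 ± 5.197 to 17.2 ± 12.4. Gga fell from 501 ± 75.3 to 22.6 ± 17.2. Among the lowest changes 4 genes known only by a number, CG15382, CG13711, CG15876 and CG13713, were passed over for named genes, with log2 fold changes of -6.36, -5.60, -5.04 and -4.82.

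**Figure D2:**
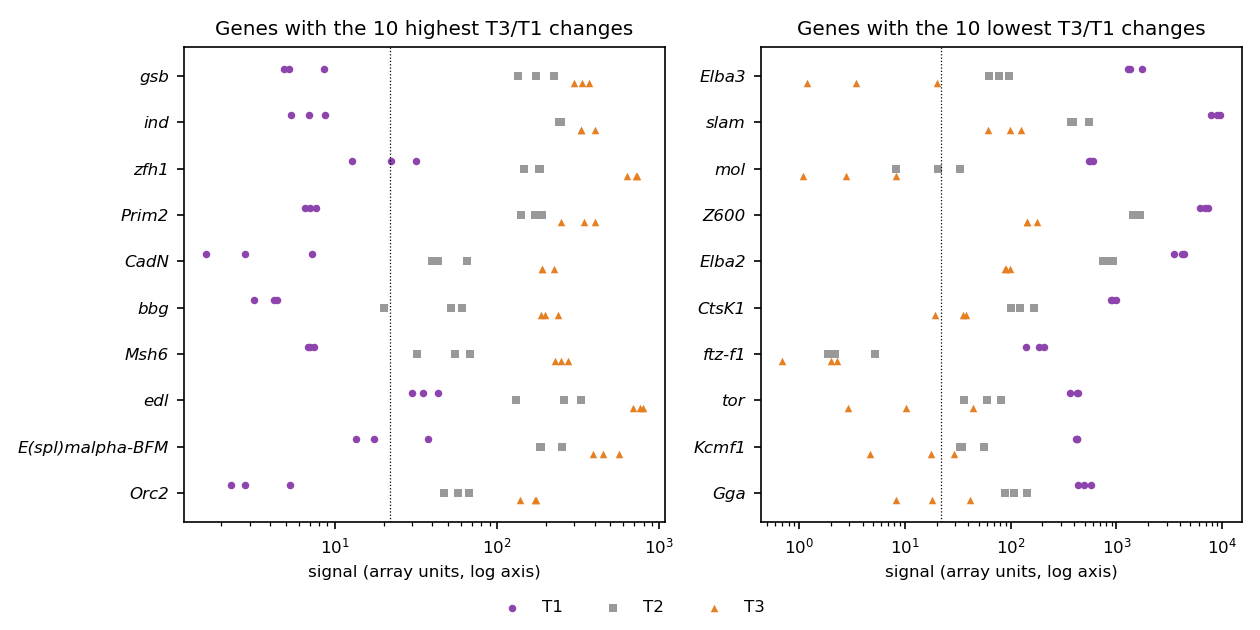
Signal on every T1, T2 and T3 array (array units, log axis) for the 10 named genes with the highest changes (left) and the 10 with the lowest (right). Circles are T1, squares T2 and triangles T3, and the dotted line is the control level of 21.96. Stages T1 and T3 do not overlap for any of these genes, as the rule for choosing them requires, and T2 mostly lies between them.

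The list medians ran from -3.53 for zygotic cellularisation genes to 1.99 for neurogenic ectoderm genes, against 0.12 over all probe sets. Only 5 of the 11 listed neurogenic ectoderm genes were measured. The lists with the highest medians after neurogenic ectoderm were segment polarity at 1.89, the Notch pathway at 1.69, EGFR and FGF signalling at 1.51 and DNA replication at 1.15. The lowest after zygotic cellularisation were genome activation and early chromatin at -1.23 and gap and head gap genes at -0.84.

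**Figure D3:**
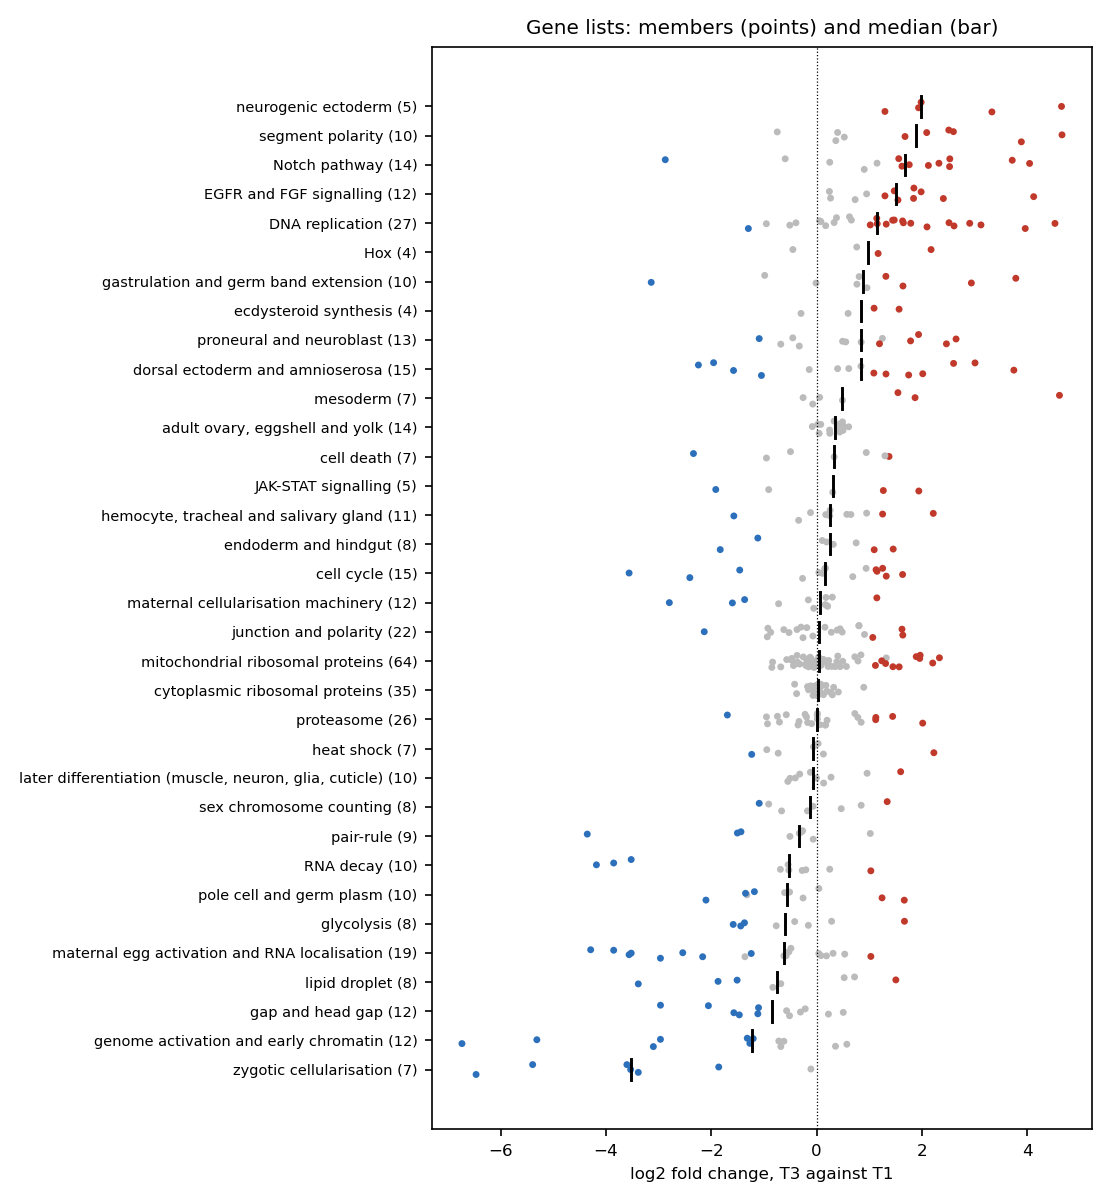
Log2 fold change of T3 against T1 for each measured member of 34 gene lists, ordered by list median (black bar), with the number of measured members in brackets. Red points were called higher, blue points lower and grey points were not called. The medians run from -3.53 for zygotic cellularisation to 1.99 for neurogenic ectoderm.

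Most genes transcribed in the blastoderm to build the cell membranes fell by T3. Of 7 measured genes of zygotic cellularisation 6 fell and 0 rose, against a background of 6.87% of genes called lower. Sry-alpha, an actin regulator of the furrow, gave 5360.6, 4782.2 and 5023.8 at T1 and 372.2, 464.3 and 396.2 at T3, without overlap (log2 fold change -3.60, adjusted p = 3.14e-08). The furrow stabiliser nullo fell from 422 ± 67.1 to 34.3 ± 23.0. Z600, which blocks mitosis by holding back cyclin-dependent kinase, fell from 6752 ± 535 to 154 ± 19.2. The exception was kuk, which encodes a nuclear envelope protein that elongates blastoderm nuclei. It gave 4350.0, 3644.8 and 4064.8 at T1 and 3495.7, 3830.2 and 3853.4 at T3, with overlapping stages (adjusted p = 0.757). Its T0 level was 953, whereas the T0 level of Z600 was 2.90.

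Of the maternally supplied furrow machinery, 3 of 12 measured members were lower (25.0%, against 6.87% of all genes) and 1 was higher (8.33%, against 9.96%). The furrow membrane gene dah fell from 1139 ± 77.0 to 158 ± 9.65 (log2 fold change -2.80, adjusted p = 8.47e-08), and nuf, which serves recycling endosomes at the furrow, fell from 178 ± 17.0 to 55.6 ± 18.04. The actin nucleator capu fell from 37.0 ± 14.4 to 10.1 ± 6.55, but this call was lost without any of T1 replicates 1 and 2 and T3 replicates 2 and 3 (adjusted p 0.056 to 0.112). The golgin gene lva rose from 82.9 ± 21.3 to 190 ± 22.8, and its log2 fold change of 1.15 became 0.89 after median centring. Profilin (chic) and cofilin (tsr), the most abundant members, were 2233 ± 233 and 2312 ± 188 at T1 and 2560 ± 65.3 and 2624 ± 304 at T3, and neither was called.

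Genes of lipid droplet transport and storage fell in 3 of 8 cases (37.5%, against 6.87% of all genes) and rose in 1 (12.5%, against 9.96%). The transport regulator halo gave 4257.7, 5197.4 and 4560.4 at T1 and 404.2, 464.4 and 449.9 at T3 (log2 fold change -3.39, adjusted p = 5.67e-08). The perilipin gene Lsd-2 fell from 189 ± 60.1 to 45.3 ± 9.50 and the lipase gene bmm from 397 ± 45.5 to 138 ± 41.5. The gene klar, which encodes a motor regulator of droplets and nuclei, rose from 24.6 ± 4.73 to 83.5 ± 15.3, with no overlap between stages. Its direction was opposite to that of halo.

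Regulators of genome activation and early chromatin fell in 7 of 12 cases (58.3%, against 6.87% of all genes), and 0 rose. The insulator genes Elba2 and Elba3 fell, as did insv, while Elba1 was not measured. Elba2 gave 3490.7, 4324.0 and 4128.4 at T1 and 99.2, 89.1 and 89.9 at T3, and insv fell from 2628 ± 523 to 1124 ± 102. BigH1, the embryonic linker histone, fell from 200 ± 9.73 to 17.6 ± 7.08 (log2 fold change -3.10, adjusted p = 2.46e-05). The zinc finger gene Clamp fell from 609 ± 41.5 to 241 ± 27.1, and psq, which encodes a GAGA-binding factor, from 183 ± 49.9 to 70.5 ± 12.3. The activator of the zygotic genome zld gave 640.5, 475.3 and 660.7 at T1 and 385.4, 403.3 and 285.0 at T3. These values did not overlap, but zld was not called (log2 fold change -0.72, adjusted p = 0.080).

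Maternal transcripts of egg activation and RNA localisation were lower at T3 in 8 of 19 cases and higher in 1. These shares of 42.1% and 5.26% stood beside 6.87% and 9.96% over all genes. The list median signal was 556 at T0, 86.3 at T1 and 19.4 at T3, so that much of the list was already low at T1. The terminal receptor gene tor gave 428.9, 363.6 and 422.8 at T1 and 44.4, 10.3 and 2.9 at T3 (log2 fold change -4.29, adjusted p = 1.30e-05). The anterior determinant bcd fell from 86.3 ± 20.7 to 5.77 ± 7.58, at least 3.86-fold. The translational regulators pum and smg fell from 286 ± 2.16 to 14.7 ± 11.6 and from 760 ± 46.8 to 59.7 ± 6.83. The posterior determinant osk, at 1734 at T0, was 42.1 ± 2.26 at T1 and 25.1 ± 4.65 at T3 and was not called. BicC was at background at both stages, after 1345 at T0. In contrast stau, which binds localised RNA, stood at 419 ± 26.7 and 431 ± 9.39.

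Factors of RNA decay fell in 3 of 10 cases and rose in 1, where 6.87% of all genes fell and 9.96% rose. Besides pum and smg, which recruit deadenylases, the decapping factor gene Edc3 fell from 240 ± 32.7 to 6.93 ± 5.86, at least 10.8-fold. The translational repressor gene brat was the exception, with 550.2, 451.6 and 566.4 at T1 and 1102.6, 939.1 and 1187.9 at T3 (log2 fold change 1.03, adjusted p = 0.013). The brat call did not hold without T1 replicate 2 (log2 fold change 0.93) or T3 replicate 3 (0.96), and centring on the ribosomal proteins or the array median also ended it. The helicase gene me31B, the most abundant of the list, was 1580 ± 207 and 1112 ± 276 and was not called.

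In the segmentation hierarchy, with the main settings, the calls among gap and pair-rule genes were all lower and those among segment polarity genes all higher. Every tier also held genes that were not called. Gap and head gap genes, which divide the embryo into broad domains, were lower in 6 of 12 cases and higher in 0. The share of 50.0% lower stood beside 6.87% over all genes. The terminal gap gene tll gave 408.9, 426.2 and 398.9 at T1 and 46.3, 45.2 and 47.5 at T3, without overlap (log2 fold change -2.96, adjusted p = 7.63e-06). The trunk gap genes hb, kni and gt fell with log2 fold changes of -2.05, -1.57 and -1.47. The gene hb went from 970 ± 114 to 229 ± 36.6. Kr was 521 ± 90.7 and 360 ± 19.2 and was not called (adjusted p = 0.148). The calls of hkb (log2 fold change -1.12) and ems (-1.10) lay near the threshold, and that of hkb was lost under quantile normalization at -0.97.

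Pair-rule genes, which set a double-segment period, fell in 3 of 9 cases (33.3%, against 6.87% of all genes) and rose in 0. The highest log2 fold change among them, 1.02 for slp2, was not called. Across the alternatives between 0 and 1 of the list were called higher. The nuclear receptor gene ftz-f1 gave 140.9, 185.1 and 207.4 at T1 and 2.0, 2.3 and 0.7 at T3, at least 7.99-fold lower (adjusted p = 1.45e-07). It was already at 3.10 at T2. The primary pair-rule genes eve and hry fell from 907 ± 104 to 333 ± 55.8 and from 609 ± 186 to 209 ± 61.5. The partner of ftz-f1, ftz, was 1004 ± 133 at T1 and 702 ± 27.2 at T3 and was not called, nor was odd at 433 ± 43.1 and 356 ± 51.1. The stages of odd overlapped.

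Segment polarity genes, which define borders within each segment, rose in 6 of 10 cases and fell in 0, against a background of 9.96% of genes called higher. This count was 6 under every alternative tried. The homeobox gene en gave 3.2, 20.2 and 17.0 at T1 and 262.7, 247.9 and 325.3 at T3, at least 12.6-fold higher (log2 fold change 3.89, adjusted p = 4.05e-06). Its partner, the ligand gene hh, gave 2.7, 10.1 and 3.9 at T1 and 60.5, 65.6 and 80.7 at T3, at least 3.12-fold higher. All T1 values of both were at background. The T-box gene mid rose from 57.7 ± 33.1 to 334 ± 82.4, the Wnt antagonist gene nkd from 94.3 ± 20.4 to 423 ± 55.8, and ci, the transcription factor of the hedgehog pathway, from 66.2 ± 12.4 to 228 ± 32.8. The hedgehog receptor gene ptc, at 272 ± 36.5 and 361 ± 40.9, was not called. The second homeobox gene beside en, inv, was near background with 2.5, 25.7 and 2.4 at T3.

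Hox genes, which give segments their identity, were dim. Of 4 measured, Antp and Dfd rose (50.0%, against 9.96% of all genes). Antp gave 0.4, 10.9 and 5.0 at T1 and 43.2, 49.8 and 47.9 at T3, at least 2.14-fold higher (adjusted p = 0.000105). Dfd rose from 19.7 ± 1.91 to 53.7 ± 8.77, a log2 fold change of 1.17 that was 0.92 after median centring and 0.99 after quantile normalization. The genes pb and Scr overlapped between stages and reached means of 11.8 and 4.53 at T3, below the control level.

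Along the dorsoventral axis, 7 of 15 genes of dorsal ectoderm and amnioserosa rose and 4 fell. These shares of 46.7% and 26.7% stood beside 9.96% and 6.87% over all genes. The protease gene tld, which frees the ligand Dpp, gave 729.0, 749.6 and 907.2 at T1 and 314.1, 237.0 and 237.3 at T3 (log2 fold change -1.58, adjusted p = 0.00141). The Dpp cofactor gene tsg fell from 388 ± 40.9 to 94.3 ± 5.55 and the homeobox gene zen from 698 ± 97.1 to 141 ± 13.4. The TNF ligand gene egr fell with a log2 fold change of -1.05, which was -0.91 after quantile normalization.

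Of the dorsal genes that rose, the zinc finger gene ush gave 13.6, 4.3 and 25.6 at T1 and 201.3, 295.2 and 300.2 at T3 (log2 fold change 3.75, adjusted p = 4.05e-06). The zinc finger gene peb gave 22.1, 4.7 and 16.8 at T1 and 154.4, 155.8 and 161.7 at T3. The GATA gene pnr rose from 4.87 ± 2.92 to 65.6 ± 11.3, at least 2.96-fold. The T-box genes Doc1, Doc2 and Doc3 rose with log2 fold changes of 1.09, 1.32 and 1.75, and the peptidase gene Ance with 2.02. The ligand gene dpp itself was 66.4 ± 18.4 at T1 and 60.5 ± 22.4 at T3, with overlapping stages (adjusted p = 0.841).

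All 5 measured genes of the neurogenic ectoderm rose, against 9.96% of all genes. Besides ind, the homeobox gene Dr gave 2.7, 2.0 and 5.8 at T1 and 83.7, 92.5 and 129.7 at T3, at least 4.56-fold higher (adjusted p = 2.29e-07). The Sox gene SoxN rose from 138 ± 24.2 to 552 ± 108. The FGF ligand genes ths and pyr rose from 22.4 ± 4.44 to 110 ± 3.55 and from 35.2 ± 10.4 to 100 ± 38.1. Across the alternatives between 4 and 5 of these genes were called. The other genes of the list, sog, brk, rho, vn, vnd and sim, were not measured.

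In the mesoderm the regulators twi and sna were abundant at both stages, and other genes rose. Of 7 measured genes 3 rose (42.9%, against 9.96% of all genes) and 0 fell. The gene twi gave 1257.5, 1140.6 and 1019.2 at T1 and 1278.1, 1262.2 and 1026.0 at T3, and sna gave 1330.5, 1427.1 and 1396.9 at T1 and 1056.1, 1313.2 and 1122.6 at T3. Neither was called (adjusted p = 0.933 and 0.654), and the stages of twi overlapped. The zinc finger gene zfh1 gave 12.7, 22.2 and 31.7 at T1 and 629.8, 716.0 and 728.2 at T3 (log2 fold change 4.62, adjusted p = 3.14e-08). The T0 level of zfh1 was 185. The FGF receptor gene htl rose from 12.9 ± 9.03 to 47.0 ± 7.17, at least 2.12-fold, and Cyp310a1, a cytochrome P450 gene, from 72.9 ± 29.0 to 280 ± 65.7. The call of htl was lost in the fit with a replicate block (adjusted p = 0.077) and with a larger pseudocount (log2 fold change 0.87).

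Among genes of gastrulation and germ band extension 4 of 10 rose and 1 fell, where 9.96% of all genes rose and 6.87% fell. T48, a transmembrane protein of apical constriction, gave 5.2, 4.8 and 8.9 at T1 and 166.0, 206.1 and 166.6 at T3, at least 8.13-fold higher (adjusted p = 1.99e-07). Its partner in the same process, the G protein gene cta, gave 214.9, 377.3 and 216.7 at T1 and 32.6, 16.1 and 22.6 at T3 (log2 fold change -3.14, adjusted p = 7.55e-06). Both genes were present at T0, at 122 and 199. The secreted ligand gene fog, which signals through cta, did not overlap between the stages, at 58.1 ± 7.60 and 120 ± 11.6, and its log2 fold change of 0.96 was just under the threshold. The leucine-rich repeat receptor gene trn rose from 44.6 ± 12.5 to 387 ± 56.3 and the adaptor gene Traf4 from 101 ± 22.8 to 329 ± 65.5. The Toll receptor gene 18w rose from 438 ± 166 to 1101 ± 365, but not without T1 replicate 1 (adjusted p = 0.059) or T3 replicate 2 (adjusted p = 0.057). Its relative Tollo, at 84.1 ± 22.1 and 146 ± 7.96, was not called.

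Of 22 junction and polarity genes 3 were higher (13.6%) and 1 lower (4.55%), near the shares of 9.96% and 6.87% over all genes. Between 0 and 4 were higher and between 1 and 4 lower across the alternatives. The junction scaffold gene cno gave 847.7, 804.6 and 975.3 at T1 and 189.8, 208.8 and 182.5 at T3 (log2 fold change -2.13, adjusted p = 6.41e-06). The E-cadherin gene shg, at 379 ± 44.6 and 196 ± 17.2, and par-6, at 275 ± 47.8 and 139 ± 18.6, did not overlap and lay just under the fold threshold. The septate junction gene nrv2 was called higher, from 2.23 ± 1.88 to 22.6 ± 8.44, but stayed near background. Its log2 fold change was 0.71, under the threshold, with a pseudocount at the median signal. The calls of Nrx-IV and sdt were lost in many settings. Nrx-IV went from 12.6 ± 11.4 to 49.1 ± 6.51, and leaving out any single array but T1 replicate 3 gave an adjusted p between 0.085 and 0.169. The polarity gene sdt, with a log2 fold change of 1.07, fell under the threshold without T1 replicates 1 or 2 (0.99 each) or T3 replicate 3 (0.87).

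In the endoderm and hindgut list 2 of 8 genes rose (25.0%) and 2 fell (25.0%), against 9.96% and 6.87% of all genes. The counts varied from 0 to 2 and from 1 to 2 across the alternatives. The homeobox gene cad, which is supplied by the mother and then transcribed in the posterior embryo, gave 308.6, 195.9 and 208.8 at T1 and 62.4, 70.1 and 50.0 at T3 (log2 fold change -1.83, adjusted p = 6.11e-05). The other gene that fell was hkb. The hindgut T-box gene byn and the forkhead gene fkh were 219 ± 15.6 and 96.0 ± 22.3 at T1 and 239 ± 35.6 and 120 ± 16.1 at T3, and neither was called. The zinc finger gene bowl rose from 7.97 ± 6.73 to 31.4 ± 1.15, but not with a replicate block (adjusted p = 0.060). The GATA gene srp gave 79.3, 97.7 and 126.0 at T1 and 170.7, 162.3 and 384.6 at T3. Its call rested on the highest of these arrays, since its log2 fold change was 1.10 with and 0.71 without T3 replicate 3 (adjusted p = 0.187), and it was also lost without T1 replicate 1 (0.148) or 2 (0.098).

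Of 11 regulators of hemocytes, tracheae and salivary glands 2 rose (18.2%) and 1 fell (9.09%), against 9.96% and 6.87% of all genes. The glial and hemocyte determinant gcm gave 4.2, 30.7 and 21.0 at T1 and 91.5, 117.5 and 93.7 at T3 (log2 fold change 2.22, adjusted p = 0.000423). The FGF ligand gene bnl was called higher but stayed near background, with 9.8, 23.9 and 21.9 at T3. The gene that fell was kni, also a gap gene. The epithelial transcription factor genes rib and grh, at 440 ± 126 and 42.8 ± 1.74 at T1, were 405 ± 125 and 69.4 ± 22.4 at T3 and were not called.

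Neural precursor genes rose in 5 of 13 cases (38.5%, against 9.96% of all genes) and fell in 1 (7.69%, against 6.87%). The Snail family gene esg gave 57.9, 101.5 and 83.5 at T1 and 462.6, 579.7 and 571.1 at T3 (log2 fold change 2.65, adjusted p = 3.91e-06). The proneural gene l(1)sc rose from 36.4 ± 7.62 to 237 ± 64.4, and its neighbour in the same complex, ac, from 4.27 ± 1.504 to 32.9 ± 8.02, at least 1.47-fold. The homeobox gene pros rose from 153 ± 48.6 to 351 ± 43.1. The neuroblast genes wor and nerfin-1 were at mean signals of 11.3 and 8.93 at T3, below the control level. The bHLH repressor gene dpn fell from 298 ± 54.9 to 135 ± 13.4, a log2 fold change of -1.09 that was -0.98 without T1 replicate 1. The asymmetric division gene mira was abundant at both stages, at 1397 ± 233 and 2062 ± 395, and was not called.

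Notch pathway genes rose in 9 of 14 cases (64.3%, against 9.96% of all genes) and fell in 1 (7.14%, against 6.87%). Members of the Enhancer of split complex, whose transcription answers Notch, rose in 6 of the cases. E(spl)malpha-BFM gave 17.4, 13.5 and 37.8 at T1 and 452.4, 566.9 and 390.0 at T3 (log2 fold change 4.05, adjusted p = 9.74e-06). The bHLH repressor gene E(spl)m5-HLH gave 29.8, 16.6 and 34.1 at T1 and 474.0, 451.8 and 371.3 at T3. Neither gene overlapped between the stages. The related gene E(spl)m7-HLH rose from 127 ± 15.99 to 768 ± 102, and E(spl)mdelta-HLH from 6.73 ± 6.27 to 37.2 ± 4.21, at least 1.69-fold. Bearded family genes outside that complex, whose products restrain the ubiquitin ligase Neuralized, rose as well. Brd rose from 284 ± 16.5 to 1454 ± 113, Tom from 1439 ± 246 to 4417 ± 435 and Ocho from 367 ± 55.9 to 1099 ± 165. The gene neur itself, at 335 ± 35.3 and 402 ± 62.2, was not called. The corepressor H, which holds Notch targets off, fell from 297 ± 92.2 to 38.6 ± 28.4 (log2 fold change -2.87, adjusted p = 7.38e-05).

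EGFR and FGF signalling genes rose in 8 of 12 cases (66.7%, against 9.96% of all genes) and fell in 0. All 12 log2 fold changes were above 0. The Ets regulator gene edl gave 35.2, 43.2 and 30.0 at T1 and 755.8, 686.8 and 796.0 at T3 (log2 fold change 4.13, adjusted p = 3.38e-07). The EGF ligand gene spi gave 370.3, 361.5 and 325.6 at T1 and 1516.7, 1261.7 and 1116.3 at T3. The antagonist gene sty rose from 37.1 ± 22.1 to 207 ± 2.92, and the Ets repressor gene aop from 259 ± 34.4 to 943 ± 64.1. The secreted antagonist gene aos was called higher but reached only 25.9, 23.3 and 17.3 at T3. The receptor gene Egfr was 190 ± 30.4 at T1 and 226 ± 32.3 at T3, with overlapping stages (adjusted p = 0.532). The FGF receptor gene htl was among the genes that rose, and the feedback gene kek1, at 8.60 ± 8.17 and 11.7 ± 9.39, was not called. With a pseudocount at the median signal 5 of the genes were still called.

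In the JAK-STAT pathway 2 of 5 genes rose and 1 fell, where 9.96% of all genes rose and 6.87% fell. The transcription factor gene Stat92E gave 763.2, 1001.8 and 1322.2 at T1 and 201.6, 263.4 and 334.3 at T3 (log2 fold change -1.91, adjusted p = 0.000114). The receptor gene dome, at 1170 ± 85.5 and 1465 ± 282, was not called. The inhibitor gene Socs44A gave 6.9, 4.5 and 9.1 at T1 and 15.4, 74.7 and 76.7 at T3, at least 2.03-fold higher, a call lost with a replicate block (adjusted p = 0.061). The ligand gene upd2 stayed dim, from 7.27 ± 8.04 to 25.6 ± 9.60, and its adjusted p was between 0.058 and 0.137 without T1 replicates 2 or 3 or T3 replicates 1 or 3.

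Of 8 genes that count the X chromosomes 1 was higher and 1 lower (12.5% each), near the shares of 9.96% and 6.87% over all genes. The bHLH gene da rose from 239 ± 33.0 to 622 ± 115 (log2 fold change 1.34, adjusted p = 0.00145). The switch gene Sxl gave 849.1, 714.3 and 911.4 at T1 and 801.6, 748.1 and 802.1 at T3, with overlap. The corepressor gene gro, at 1048 ± 68.8 and 667 ± 130, did not overlap and lay under the fold threshold, and the gene that fell was dpn.

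Germ plasm and pole cell genes were lower in 3 of 10 cases (30.0%, against 6.87% of all genes) and higher in 2 (20.0%, against 9.96%). The Tudor-domain gene tej gave 450.5, 444.0 and 410.3 at T1 and 64.7, 131.2 and 102.4 at T3 (log2 fold change -2.10, adjusted p = 1.35e-05). The pole cell formation gene gcl fell from 213 ± 8.64 to 81.5 ± 23.7, and the piRNA gene aub from 266 ± 18.8 to 114 ± 14.8. The helicase gene vas was at background at both stages, after 565 at T0. The genes that rose, tud and ovo, were dim. The tud values of 31.4, 2.3 and 39.8 at T1 against 72.7, 91.1 and 63.9 at T3 gave a log2 fold change of 1.67, which was 0.95 without T1 replicate 2, and the adjusted p was 0.053 without T3 replicate 2. The ovo call was lost without T1 replicate 1 or 2 or T3 replicate 1 or 2 (adjusted p 0.054 to 0.089).

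Cell cycle genes rose in 5 of 15 cases (33.3%, against 9.96% of all genes) and fell in 3 (20.0%, against 6.87%). Among the genes that fell, the phosphatase gene twe gave 251.6, 187.4 and 207.3 at T1 and 12.1, 21.7 and 4.4 at T3, at least 9.74-fold lower (adjusted p = 4.07e-05). The gene trbl, whose product marks the String phosphatase for degradation, fell from 1816 ± 73.3 to 656 ± 11.9, and the cyclin gene CycD from 333 ± 24.9 to 57.2 ± 9.19. The APC/C activator gene fzr rose from 53.2 ± 19.1 to 178 ± 44.6, E2f2 from 145 ± 24.5 to 375 ± 78.2 and E2f1 from 177 ± 25.5 to 399 ± 19.7. The E2f1 log2 fold change of 1.15 was 0.90 after median centring. The checkpoint kinase gene mei-41 and the retinoblastoma gene Rbf also rose. The mitotic cyclins CycB and CycB3 stood at 2534 ± 150 and 3483 ± 250 at T1 and at 2614 ± 128 and 3920 ± 337 at T3, and neither was called.

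DNA replication genes rose in 16 of 27 cases and fell in 1, where 9.96% of genes rose and 6.87% fell. The count of risers was between 13 and 16 across the alternatives. Primase subunit gene Prim2 gave 7.7, 7.0 and 6.6 at T1 and 404.0, 246.1 and 345.4 at T3, at least 14.8-fold higher (log2 fold change 4.53, adjusted p = 3.26e-08). The origin recognition gene Orc2 gave 2.8, 5.3 and 2.3 at T1 and 171.0, 137.6 and 172.9 at T3, at least 7.27-fold higher, and Orc4 gave 3.9, 1.1 and 3.0 at T1 and 85.5, 99.0 and 57.8 at T3, at least 3.59-fold higher. For these genes every T1 value was at background and every T3 value above it. Orc1 and Orc5 rose with log2 fold changes of 1.32 and 1.45.

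The helicase genes Mcm2, Mcm3, Mcm5 and dpa, the gene for MCM4, rose with log2 fold changes of 1.48, 2.10, 1.15 and 1.64, while Mcm6 at 0.38 was not called. The polymerase alpha genes PolA1 and PolA2 rose from 170 ± 38.01 to 603 ± 116 and from 41.4 ± 15.96 to 348 ± 64.0. The flap endonuclease gene Fen1 rose at least 3.39-fold and the clamp loader gene Gnf1 at least 3.98-fold from background. PCNA, the sliding clamp, was 1527 ± 237 at T1 and 2344 ± 138 at T3, and its log2 fold change of 0.63 stayed under the threshold. The GINS subunit genes diverged, with Psf3 called higher (1.02), Sld5 lower (-1.30) and Psf2 not called (0.06). Psf1 was not called either (0.66), though its T1 and T3 arrays did not overlap. Its T2 arrays, which shared in the estimate of spread, gave 118.1, 13.5 and 134.1.

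The list was not low before T1. Its mean T0 signal was above its mean T1 signal for 23 of 27 genes, and the list medians were 344 at T0, 92.2 at T1, 159 at T2, 210 at T3 and 279 at T4. Prim2 was 436 at T0 and Orc2 was 154, close to their T3 means of 332 and 161.

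**Figure D4:**
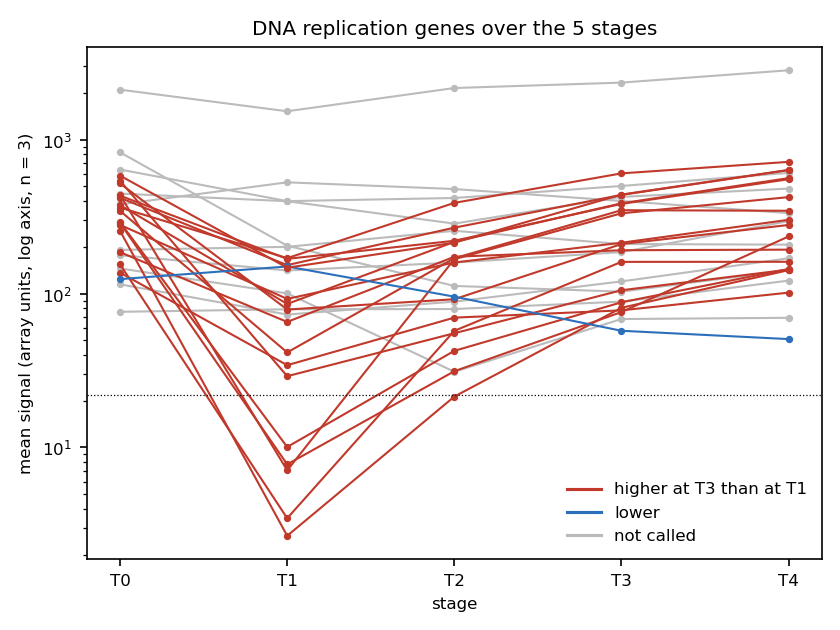
Mean signal (array units, log axis, n = 3 arrays per stage) of the 27 DNA replication genes at stages T0 to T4, 1 line per gene. Red lines are the 16 genes called higher at T3 than at T1, the blue line is Sld5, called lower, and grey lines were not called, with the control level of 21.96 dotted. The lines of Prim2, Orc2, Orc4, Fen1 and Gnf1 lie below the control level at T1.

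Glycolysis enzymes fell in 3 of 8 cases (37.5%, against 6.87% of all genes) and rose in 1 (12.5%, against 9.96%). Eno, the enolase gene, gave 626.5, 388.3 and 366.8 at T1 and 179.8, 142.1 and 187.5 at T3 (log2 fold change -1.37, adjusted p = 0.00108). Gapdh1 fell from 332 ± 59.8 to 116 ± 4.66 and Pglym78 from 516 ± 50.0 to 167 ± 16.9. Pgi, the phosphoglucose isomerase gene, rose from 55.1 ± 11.1 to 192 ± 36.2. The aldolase gene Ald1 was 1537 ± 302 and 1141 ± 142 and was not called. In the ecdysteroid synthesis list dib rose from 98.0 ± 20.0 to 303 ± 37.99 (log2 fold change 1.57, adjusted p = 0.0034). The sad call, at 1.09, was lost without T1 replicate 1 (0.998) or 3 (0.96), and spo and shd were not called.

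Among 7 heat shock genes 1 rose and 1 fell (14.3% each, against 9.96% and 6.87% of all genes). The mitochondrial chaperone gene Hsc70-5 rose from 11.8 ± 7.68 to 76.7 ± 10.9, at least 3.47-fold. Hsp26, at 6763 at T0, fell from 72.9 ± 9.23 to 27.8 ± 10.8, a call lost without any of T1 replicates 1 to 3 or T3 replicates 1 or 2 (adjusted p 0.087 to 0.172). Hsc70-4, the most abundant, was 4256 ± 379 and 4083 ± 286 and was not called. Of 7 cell death genes 1 rose and 1 fell (also 14.3% each). The initiator caspase gene Dronc fell from 298 ± 17.2 to 53.2 ± 4.89. The effector caspase gene Dcp-1 gave 510.3, 500.7 and 567.9 at T1 and 1475.5, 1547.3 and 1143.8 at T3 (log2 fold change 1.38, adjusted p = 0.000478). A further caspase gene, Dredd, at 20.5 ± 6.42 and 12.6 ± 5.45, was not called. Dark, the apoptosome gene, and Diap2, a caspase inhibitor gene, had log2 fold changes of 0.94 and -0.95 and crossed the threshold in some settings, Dark without T1 replicate 3 (1.13) or T3 replicate 1 (1.01), Diap2 without T1 replicate 1 (-1.13) or T3 replicate 3 (-1.01).

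Of 35 measured genes of the cytoplasmic ribosome, limma called 0 in either direction, 1 had an unadjusted p under 0.05, and the median log2 fold change was 0.03. Of 64 mitochondrial ribosomal protein genes 10 rose and 0 fell, with a median of 0.04. The share of risers, 15.6%, stood beside 9.96% over all genes, which include genes at background. All 64 exceeded the control level on at least 1 T1 or T3 array. Of the 5531 genes above the control level on all T0 arrays 780 rose, a share close to that of this list. The gene mRpL46 rose from 68.6 ± 5.21 to 289 ± 9.54 (log2 fold change 1.97, adjusted p = 4.68e-06), and mRpS35 gave 63.2, 66.3 and 66.1 at T1 and 285.1, 262.9 and 276.9 at T3. The genes mRpL38 and mRpL43 had log2 fold changes of 2.34 and 2.21. The mean T0 signals were 469 for mRpL38, 399 for mRpL46, 295 for mRpS35 and 153 for mRpL43.

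The proteasome list had a median of 0.01, with 4 of 26 higher (15.4%) and 1 lower (3.85%), against 9.96% and 6.87% of all genes. All 26 exceeded the control level on at least 1 T1 or T3 array, whereas all genes include those at background. The genes that rose encode the regulatory particle. Rpn11, its deubiquitinase, gave 50.9, 62.2 and 70.0 at T1 and 235.2, 328.3 and 247.6 at T3 (log2 fold change 2.02, adjusted p = 1.00e-05), and Rpn8 rose from 50.4 ± 9.50 to 153 ± 48.8. Rpn7 and Rpt5 rose with log2 fold changes of 1.13 and 1.12, which were 0.87 each after median centring, and Rpt5 was also under the threshold without T1 replicate 1 (0.97) or T3 replicate 3 (0.96). The core particle gene Prosalpha4 fell from 1678 ± 295 to 513 ± 81.9 (log2 fold change -1.69, adjusted p = 4.33e-05). Split by particle, a division made after the values were seen, the log2 fold change was above 0 for 12 of 14 regulatory genes and below 0 for 10 of 12 core genes, with medians of 0.46 and -0.46.

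The T0 arrays showed whether the genes that changed had been present in the maternal pool. They did not enter the difference between T3 and T1, but they shared in the estimate of spread. Of the 1080 genes that rose, 780 (72.2%) were above the control level on all T0 arrays and 221 (20.5%) were at or below it on all of them. Of the 745 that fell, 671 (90.1%) were above it and 47 (6.31%) at or below it. Over all 10844 genes these shares were 51.0% and 36.3%. That comparison is uneven, because genes at background at T1 and T3 count among all genes but were seldom called. Only 19 of the 2184 called probe sets were at or below the control level on all T1 and T3 arrays. The 780 risers present at T0 had a median signal of 159 at T0, 38.1 at T1, 84.7 at T2, 126 at T3 and 144 at T4. They were chosen for a T1 level under the T3 level and for a T0 level above control. The low median at T1 is therefore largely built in. The 47 genes that fell and were not above the control level at T0 had medians of 6.10 at T0, 305 at T1 and 34.3 at T3. Their low T0 level and their fall from T1 were likewise the grounds on which they were chosen.

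Genes not above the control level at T0 differed in length by direction. Those that fell had a median length of 1377 bases in RefSeq, from start to end with introns (45 genes with a length), and 66.7% were shorter than 2000 bases. The 221 that rose had a median of 4399 bases, and 25.3% were shorter than 2000. All measured genes at or below the control level at T0 had a median of 1990 bases, with 50.3% shorter than 2000. Among genes present at T0 the order was the other way, with medians of 3901 bases for those that fell and 2602 for those that rose. Rebuilt under each alternative, a step added after seeing the data, the medians lay between 1038 and 1469 bases for the first group and between 3568 and 5592 for the second. These are descriptions, without a test, of groups chosen by their calls.

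**Figure D5:**
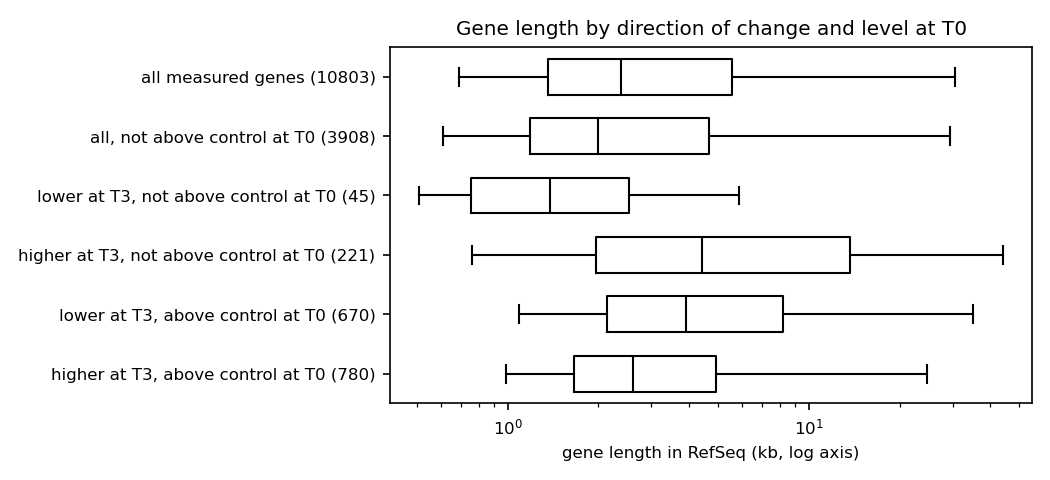
Gene length in RefSeq (kb, log axis) for all measured genes and for genes split by direction of change and by their level at T0, with the number of genes in brackets. Boxes span the quartiles, the line is the median and whiskers reach the 5th and 95th percentiles. Among genes not above the control level at T0, the median is 1377 bases for those lower at T3 and 4399 for those higher.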

How the data were processed

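The authors deposited a linear signal intensity for each probe set and array. They made it with MAS5, per the submitters' processing notes (the version is not given in the sources used here), and the 2% trimmed mean of each array was 100. Groups and replicate numbers were taken from the sample titles. The table held 14010 probe sets, of which 44 platform controls were left out. Of the 13966 tested, 12443 had 1 gene symbol in the platform annotation, 327 had several and 1196 none. Symbols were updated through Entrez identifiers for 12394. A gene with several probe sets (1209 genes) was represented by the one with the highest mean log2 signal over all arrays, and 3 genes held probe sets with opposite calls.

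Signals were tested as log2(signal + 7.3), 7.3 being the 25th percentile of a typical array (median of the 15), so fold changes of dim genes are understated. All 15 arrays entered a model of stage means in limma 3.58.1 (statmod 1.5.0, R 4.3.3), moderated by eBayes (median degrees of freedom 13.6), with Benjamini-Hochberg adjustment over all probe sets. The pipeline was tested on simulated data. A gene at or below 21.96 on every array of a stage has "at least" a fold there, computed against that level. Named were the 10 highest and 10 lowest called genes without overlap of the stages, numbered-only genes being passed over, and per list at most 4 called members in a direction and the 2 brightest uncalled ones. Other named members were chosen after their values were seen. The comparison, members and lists were chosen with earlier results of these data known. Alternatives were 17 settings of scaling, pseudocount, filter, fit and arrays left out. Same-numbered T1 and T3 arrays deviated from their stage means with correlations of 0.075, -0.042 and 0.062, so the numbers were not taken to pair the arrays. Promoter sequences were not analysed here.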

Additional observations from a re-analysis of the deposited data

How the results depend on the processing

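Over 17 alternatives, 0 probe sets were called in the opposite direction, and between 1439 and 2152 of the 2184 calls were shared. A pseudocount set at the median signal gave 782 probe sets higher in place of 1291, which compresses dim probe sets. The share of calls that were higher was 59.1% and 40.8% after centring on the array median. The median change over all probe sets was 0.118 on the log2 scale, and it was -0.136 after centring on the array median and 0.010 after quantile normalization. T3 arrays had the higher median signals at equal trimmed means, which these settings remove. Leaving out each array in turn gave 1181 to 1273 probe sets higher, 831 to 875 lower, a share of 58.5% to 59.6% and a median of 0.059 to 0.146. A fit to the T1 and T3 arrays alone gave 1218 higher and 860 lower, and 2000 of the 2184 calls were kept. In that fit elav, ovo, srp, tud and upd2 lost their calls (limma adjusted p 0.053 to 0.105). With the replicate number as a replicate block 1075 were higher and 785 lower. Not every array correlated best with the array of its own number. Of 187 genes followed, 124 were called, 27 of these lost the call and 5 others gained one in at least 1 setting, and 0 reversed. Of 68 list counts, 27 moved by more than 1.5 times in some setting, mostly counts of 1 to 5. For EGFR and FGF signalling (8) and the cell cycle (5) the pseudocount at the median signal gave 5 and 3 genes higher. The cause was not tested for single genes. On each T1 and T3 array 41% to 49.7% of signals were below the control level, which limits what can be said of dim genes.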
